A study of Arabidopsis thaliana with 6 samples.

Results

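RAP2.6, ABR1, RAP2.6L, ERF114 and ERF115 are 5 of the ethylene response factor (ERF) genes that are placed in group X of the family in Arabidopsis thaliana. Their loci are AT1G43160, AT5G64750, AT5G13330, AT5G61890 and AT5G07310, the first on chromosome 1 and the others on chromosome 5. They were chosen by name because RAP2.6 lay farthest above untreated plants on the array of 1 h after estradiol, among genes well above background on both arrays. The untreated and 1 h values of RAP2.6 therefore describe how the set was picked and support nothing. Its other comparisons with untreated plants or with 1 h reuse these values and are descriptions only. All 5 genes were represented on the array, ERF114 by 2 probes and the others by 1 probe each, and all 5 were well above background on at least 1 array, as were 21289 genes in all.

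Total RNA was prepared from the shoot apical meristem with juvenile leaves at 21 days of age, and each of 6 samples pooled 30 plants and went to 1 array. All plants carried XVE, a chimeric activator that turns on its target promoter when estradiol is present. Plants that also carried the AMY3C-EY construct were left untreated (0 h), were brushed on the meristem with 20 µM 17-β-estradiol and sampled after 1, 3 or 6 h, or were brushed with the solvent DMSO and sampled after 6 h. Plants with XVE alone were brushed with estradiol and sampled after 6 h, and are called the XVE array here. The labels give neither the product of AMY3C-EY nor how many independent lines were used. No solvent control and no XVE control was sampled at 1 or 3 h, so differences there combine estradiol, the construct, brushing and time.

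ERF proteins carry a single AP2/ERF domain, which binds GCC-box and related promoter elements. Group X members are known mostly from stress and regeneration. RAP2.6 and ABR1 are induced by jasmonate, abscisic acid and wounding, RAP2.6L takes part in shoot regeneration and in the healing of cut stems, ERF114 promotes axillary bud outgrowth, and ERF115 drives the division and replacement of root stem cells after damage.

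One slide, counted as slide 1, held the time course (0, 1, 3 and 6 h), and slide 2, scanned separately, held both 6 h controls, so any comparison of a control with the time course is also one of slides. A level is the log2 processed signal minus the 75th percentile of its array, and that percentile ran from 341.6 (XVE) to 1435 (3 h). With 1 array per group there was no replicate, no test could be made, and precision is limited by the single array. A value after ± is the error that the scanner software gives for that spot, which covers neither plants nor hybridisation, and a gene is counted as apart in a comparison when its levels differed at least 2-fold and were well above background on both arrays. Of the shoot meristem markers STM, CLV3 and KNAT1 were well above background on all 6 arrays and WUS on none, and all 4 leaf mesophyll markers were on every array. Of the markers of other organs, the flower gene AP1, the tapetum genes A9 and LAP5 and the root gene WOX5 were well above background on all 6 arrays, whereas LFY, MS2 and PLT1 were on none. AMY3, the endogenous gene whose name the construct resembles, had levels of 1.34, 2.49, 3.55 and 3.88 in the time course, 2.53 for DMSO and 2.47 for XVE. In RNA from whole shoot tips, more cells of a type and more RNA per cell cannot be told apart.

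RAP2.6 encodes an activator that binds GCC-box promoters in jasmonate and abscisic acid responses. Over the time course (0, 1, 3 and 6 h) its levels were -2.79 ± 0.17, 3.51 ± 0.14, 1.69 ± 0.14 and 0.12 ± 0.14, and the 6 h controls gave 1.18 ± 0.14 for DMSO and 0.077 ± 0.15 for XVE. It was thus lowest in untreated plants and highest at 1 h, and every brushed sample lay above the untreated one. The signal itself went from 80.0 at 0 h to 5491 at 1 h. As levels the difference was 6.31 ± 0.23 or 79.1-fold, the highest among the 18543 genes well above background on both arrays. Genes dim at 0 h, some with larger bounds, are not in that ranking. At 3 h RAP2.6 was 22.3-fold above 0 h, rank 2 of 19226 genes, and at 6 h it was 7.52-fold above, rank 20 of 19172. Between 1 and 3 h its level was lower by -1.82 ± 0.20 and between 3 and 6 h by -1.57 ± 0.20, so that successive times in the course were separated by several times the scanner error.

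The level of RAP2.6 stayed above that of untreated plants without estradiol or without the construct. On the DMSO array it was 15.7-fold above 0 h, rank 10 of 18759 genes, and on the XVE array 7.32-fold, rank 60 of 18255. Placed in order, the arrays ran 1 h, 3 h, DMSO, 6 h of estradiol, XVE and 0 h. The neighbours 6 h of estradiol and XVE differed by 0.039 ± 0.20, less than the scanner error, and all other neighbours in that order differed by more than it.

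ABR1 encodes a repressor of abscisic acid responses that is also switched on by wounding. Its probe was not well above background at 0 h, where the signal was 5.49, and stood at 1.57 ± 0.14 at 1 h with a signal of 1435. Its later levels were -1.32 ± 0.15 (3 h) and -2.01 ± 0.15 (6 h of estradiol), with -2.10 ± 0.15 for DMSO and -3.22 ± 0.21 for XVE. ABR1 therefore shared with RAP2.6 a maximum at 1 h and a minimum at 0 h. Against the lowest signal well above background at 0 h it was at least 60.5-fold higher at 1 h, at least 8.15-fold at 3 h and at least 5.05-fold at 6 h. The bound at 1 h was rank 3 among the 456 genes that were dim at 0 h and measured at 1 h.

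ABR1 was already far lower at 3 h than at 1 h. Its level was lower by -2.89 ± 0.20 at 3 h than at 1 h, which placed it 23rd from the lowest of 18890 genes, and RAP2.6, at -1.82, was 208th. From 3 to 6 h ABR1 was lower by -0.69 ± 0.21 and RAP2.6 by -1.57. Whether the rates differ was not tested, since each time is 1 array.

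**Figure D1:**
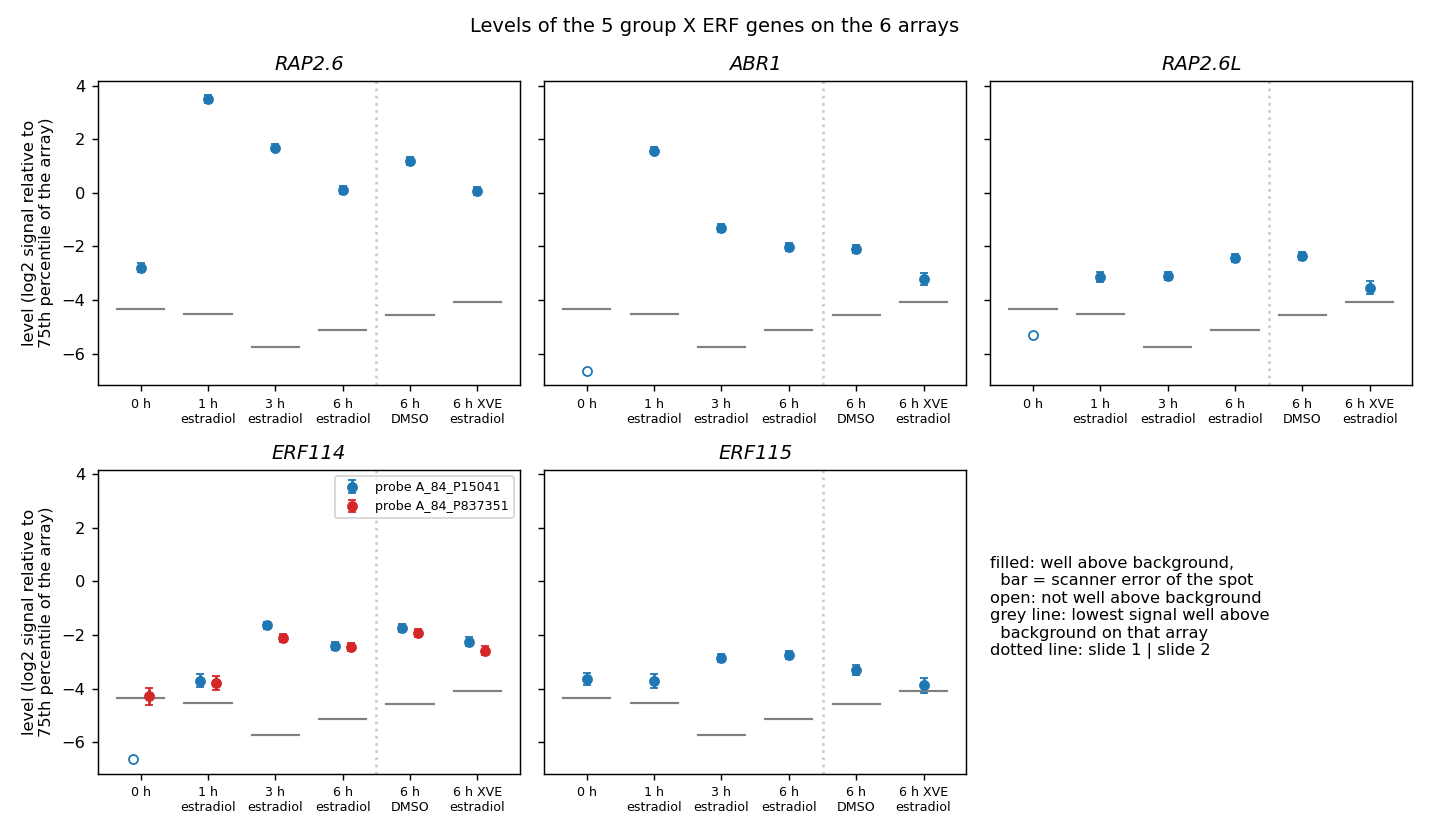
Levels of the 5 genes (log2 signal minus each array's 75th percentile) on the 6 arrays, with filled points for spots well above background, bars for the scanner error, open points for spots not well above background, and grey lines for the lowest signal well above background on each array. RAP2.6 and ABR1 were highest at 1 h, at 3.51 and 1.57, whereas the ERF114 probes stood at -3.78 and -3.70 at 1 h and at -2.11 and -1.64 at 3 h.

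ERF114, also known as a factor of bud outgrowth and cell division, had a later pattern. Its probe A_84_P837351 gave -4.28 ± 0.31, -3.78 ± 0.26, -2.11 ± 0.15 and -2.43 ± 0.15 over the time course, -1.93 ± 0.15 for DMSO and -2.58 ± 0.18 for XVE. The other probe, A_84_P15041, had a dim spot at 0 h and gave -3.70 ± 0.25 (1 h), -1.64 ± 0.15 (3 h), -2.40 ± 0.15 (6 h), -1.72 ± 0.15 (DMSO) and -2.24 ± 0.17 (XVE). Where both were measured the probes lay within 0.47 of each other, and both put 3 h and DMSO highest.

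By the first probe ERF114 was 1.42-fold above 0 h at 1 h (0.50 ± 0.40), 4.51-fold at 3 h and 3.60-fold at 6 h. The second probe gave bounds of at least 1.56-fold, 6.51-fold and 3.86-fold at those times. The mean of both probes, the value used for counts, was -5.45 at 0 h, under that array's limit of -4.34, and gave larger differences of 1.71 at 1 h, 3.57 at 3 h and 3.04 at 6 h. Thus the 1 h difference passed 2-fold for the mean and not for the brighter probe. The difference from 1 to 3 h does not rest on the dim spot: it was 1.67 ± 0.30 by the first probe and 2.06 ± 0.29 by the second, and the mean, 1.87, was rank 21 of 18890 genes. On the DMSO array the first probe was 5.11-fold above 0 h and on the XVE array 3.25-fold.

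RAP2.6L, a factor of shoot regeneration and flooding tolerance, had faint signals. It was not well above background at 0 h (signal 14.1), and had levels of -3.14 ± 0.19 (1 h), -3.12 ± 0.15 (3 h), -2.44 ± 0.15 (6 h of estradiol), -2.36 ± 0.16 (DMSO) and -3.54 ± 0.24 (XVE). The 1 and 3 h arrays differed by 0.018 ± 0.24, within the scanner error, and 6 h lay above 3 h by 0.68 ± 0.21. Unlike RAP2.6 it had no maximum at 1 h. Against 0 h it was at least 2.31-fold higher at 1 h, at least 2.34-fold at 3 h, at least 3.75-fold at 6 h, at least 3.95-fold with DMSO and at least 1.75-fold on the XVE array. Under the normexp background correction none of these bounds reached 2-fold.

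ERF115, the regeneration factor of the root stem cell niche, varied least of the 5. Time course levels were -3.63 ± 0.23, -3.71 ± 0.26, -2.87 ± 0.15 and -2.74 ± 0.15, and the controls gave -3.31 ± 0.19 for DMSO and -3.88 ± 0.29 for XVE. The whole range over 6 arrays was 1.14, and no array was 2-fold from 0 h. The 1 h array differed from 0 h by -0.075 ± 0.34, less than the scanner error, whereas 3 h lay above 0 h by 0.76 ± 0.27 and 6 h by 0.89 ± 0.28. The highest levels were at 3 and 6 h of estradiol, 0.13 ± 0.22 apart, and the lowest 3, at 0 h, 1 h and on the XVE array, were not separated from one another, neighbour by neighbour, by more than the scanner error. Under normexp the 3 h difference from 0 h was -0.094 and the 6 h difference 0.18.

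Counted together, 2 of the 3 genes measured on both arrays, RAP2.6 and ERF114, were at least 2-fold above 0 h at 1 h, where 6.32% of all genes were; this is the comparison that chose the set, and nothing is read from it. ABR1 and RAP2.6L had bounds past 2-fold there, as had 42.3% of the genes dim at 0 h only. At 3 h the same 2 of 3 were at least 2-fold higher against 2.38% of all genes, and both bounds passed 2-fold against 3.96% of the genes dim at 0 h only. At 6 h of estradiol 2 of 3 were higher against 2.61%, and both bounds passed against 7.72%. Under normexp ERF114 was at 0.79 and the bound of RAP2.6L at 0.72 on the log2 scale at 6 h, both short of 2-fold. These comparisons share the single 0 h array, whose value for RAP2.6 took part in the choice of the set, so they are descriptions. The 3 epidermis markers had medians below 0 h on the later arrays, -0.78, -0.66 and -0.48 at 1, 3 and 6 h of estradiol, -0.57 with DMSO and -0.86 on the XVE array. Of the 4 mesophyll markers 2 were at least 2-fold below 0 h at 6 h of estradiol and 2 at least 2-fold above it on the XVE array. The part of these markers in the results was not tested. Over all genes at 3 h, 32.3% of calls were higher ones, against 45.4% with quantile scaling, 42.4% with cyclic loess and 15.4% under normexp.

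After 1 h the genes differed in direction. From 1 to 3 h ERF114 was at least 2-fold higher (2.37% of all genes), though by 0.66 and so not past 2-fold under normexp, and RAP2.6 and ABR1 at least 2-fold lower (5.18%), with RAP2.6L at 0.018 and ERF115 at 0.84 (-0.11 under normexp). From 3 to 6 h RAP2.6 alone was at least 2-fold apart, lower against 1.58% of all genes, and the other differences ran from -0.69 for ABR1 to 0.68 for RAP2.6L. These comparisons lie within 1 slide and leave out the 0 h array. That from 1 to 3 h reuses the 1 h value by which RAP2.6 was chosen, so the lower RAP2.6 there is a description only.

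With DMSO 2 of 3 genes, RAP2.6 and ERF114, were at least 2-fold above 0 h (4.62% of all genes) and both ABR1 and RAP2.6L had bounds past 2-fold (21.8% of genes dim at 0 h only). On the XVE array the same 2 were (7.25%), and ABR1, at least 2.18-fold higher, had a bound past 2-fold (36.2%). RAP2.6, ABR1 and ERF114 therefore differed at least 2-fold from 0 h also on the arrays without estradiol or without the construct. This comparison lies across slides, and for RAP2.6 it reuses the 0 h value that took part in the choice of the set.

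The comparison of estradiol with DMSO in AMY3C-EY plants at 6 h set line and time equal, but not the slide. RAP2.6 was at 0.12 with estradiol and 1.18 with DMSO, lower by -1.07 ± 0.20 and thus 2.09-fold, and was the 1 gene of the 5 past 2-fold (2.43% of all genes were lower); with quantile scaling it was at -0.98. ABR1 at 0.095 ± 0.21 and RAP2.6L at -0.077 ± 0.22 differed by less than the scanner error. ERF114 was lower with estradiol by -0.59 and ERF115 higher by 0.57 ± 0.24. None of the 5 was at least 2-fold higher with estradiol than with DMSO, where 1.51% of all genes were.

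Against the XVE array, with estradiol and time equal but the slide not, RAP2.6 differed by 0.039 and ERF114 by -0.0028. ABR1 (2.32-fold, 1.21 ± 0.26), ERF115 (2.20-fold, 1.14 ± 0.33) and RAP2.6L (2.15-fold) were at least 2-fold higher in plants with the construct, 3 of 5 against 3.7% of all genes. These 3 probes were faint on the XVE array, the dimmest of the 6, with signals of 36.7, 23.2 and 29.4. Under normexp their differences were 0.34, -0.026 and -0.069, so the calls ended and the direction turned for ERF115 and RAP2.6L. Of the 4 leaf mesophyll markers 3 were at least 2-fold lower at 6 h of estradiol than on the XVE array, with a mean level over the 4 of 3.46 at 6 h of estradiol, 5.09 on the XVE array and 4.17 with DMSO; their part in the result was not tested.

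Both controls of the second slide could be set against each other without a slide difference. They differ in the construct and in estradiol at once, so the parts of these cannot be told apart. Of the 4 leaf mesophyll markers 1 was at least 2-fold higher on the XVE array than with DMSO, with a median of 0.86. The part of these markers was not tested. All 5 genes were lower on the XVE array than with DMSO, and RAP2.6L at -1.18 ± 0.29, ABR1 at -1.12 ± 0.26 and RAP2.6 (2.15-fold) were at least 2-fold lower, 3 of 5 against 2.06% of all genes. ERF114 was at -0.59 and ERF115 at -0.57 ± 0.34. Under normexp RAP2.6 was still more than 2-fold lower, whereas ABR1 was at -0.27, RAP2.6L at -0.0061 and ERF115 at 0.42, the opposite direction.

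**Figure D2:**
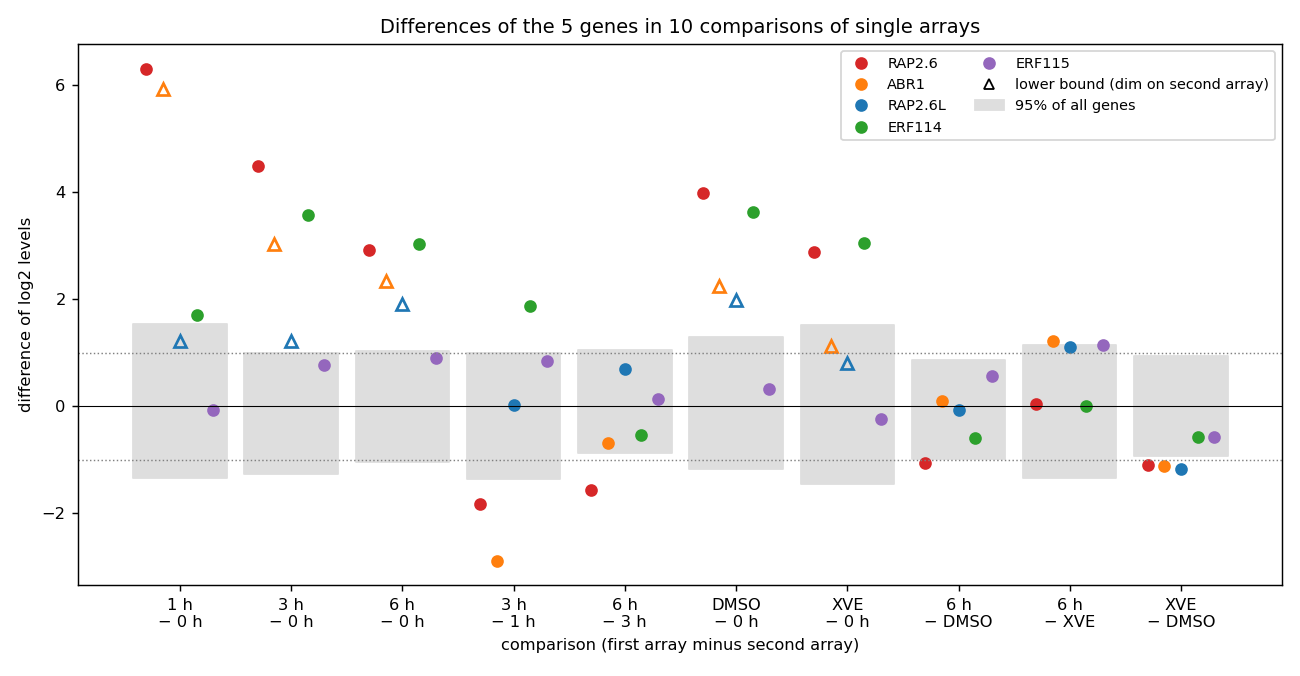
Differences of log2 levels of the 5 genes in 10 comparisons of single arrays, with triangles for lower bounds where the second array was dim, grey bars for the central 95% of all genes measured on both arrays, and dotted lines at 2-fold. RAP2.6 lay at 6.31, 4.48 and 2.91 above 0 h at 1, 3 and 6 h of estradiol and at 3.98 with DMSO; the differences of ERF114 from 0 h use the mean of its 2 probes, 1 of which was dim at 0 h.

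RAP2.6 and ABR1 had the highest correlation of the 10 pairs of these genes. Likeness was measured as the root mean square difference between log2 levels over the 6 arrays, after the mean of each gene was subtracted. It was 0.68 for RAP2.6 and ABR1 (Pearson r 0.98 over 6 arrays), which placed ABR1 13th among 21288 genes in closeness to RAP2.6. RAP2.6L and ERF114, which vary less, were as close at 0.67 (r 0.86), but ERF114 was only 264th among genes like RAP2.6L. ERF115 was 1.92 from RAP2.6 (r 0.09). The 6 arrays share 2 slides, and ABR1 and RAP2.6L have dim 0 h values with no order. The ERF114 mean at 0 h, -5.45, includes a dim spot and lies under that array's limit of -4.34. These numbers are therefore a description.

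The 10 genes most like RAP2.6 outside the set lay at 0.36 to 0.67 from it. In order they were AT1G14780, LTI30, IOS1, ATBFRUCT1, AT5G05600, AT1G30720, AT2G24560, MDHAR, AAT1 and AT2G39518. LTI30 encodes a dehydrin of cold and drought, ATBFRUCT1 a cell wall invertase, IOS1 a receptor kinase of immunity, and AT5G05600 an oxygenase that inactivates jasmonate. LTI30 had -2.89, 2.53, 1.02 and 0.25 over the time course, 0.21 for DMSO and -0.89 for XVE. AT5G05600 was at -2.91, 2.82, 1.00 and 0.69 in the time course, 1.32 with DMSO and 0.42 on the XVE array, so that DMSO lay above 6 h of estradiol as it did for RAP2.6. All 10 were highest at 1 h and lowest at 0 h, which their choice by likeness to RAP2.6 largely fixed in advance. Of the 10, 3 were well above background at 0 h.

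The nearest patterns of the other genes were different ones. ABR1 was closest to AT2G38240 (0.41), whose levels were 2.95 (1 h), 0.55 (3 h) and -1.48 (6 h), and then to AT2G24560, LTI30, MDHAR and AT1G14780, all of which are also among the 10 of RAP2.6. ERF114 was closest to AT4G30650 (0.41), at 0.94 at 0 h, 2.32 at 1 h, 3.98 at 3 h and 5.06 with DMSO. Next came COR15B, a cold-regulated chloroplast protein gene, the sugar transporter gene SWEET4, AT1G65690 and ST2A, a hydroxyjasmonate sulfotransferase gene. The ERF114 mean includes a dim spot at 0 h, and SWEET4 and AT1G65690 were well above background on 4 arrays each. RAP2.6L was closest to the sulfate transporter gene SULTR1;2 (0.26), OEP16-1, ERF53, PGL5 and AT2G43610. ERF115 lay within 0.13 of AT2G34240, DRP4C, AT5G09480, TK1b and AT1G50910, of which DRP4C and AT5G09480 were dim on most arrays.

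**Figure D3:**
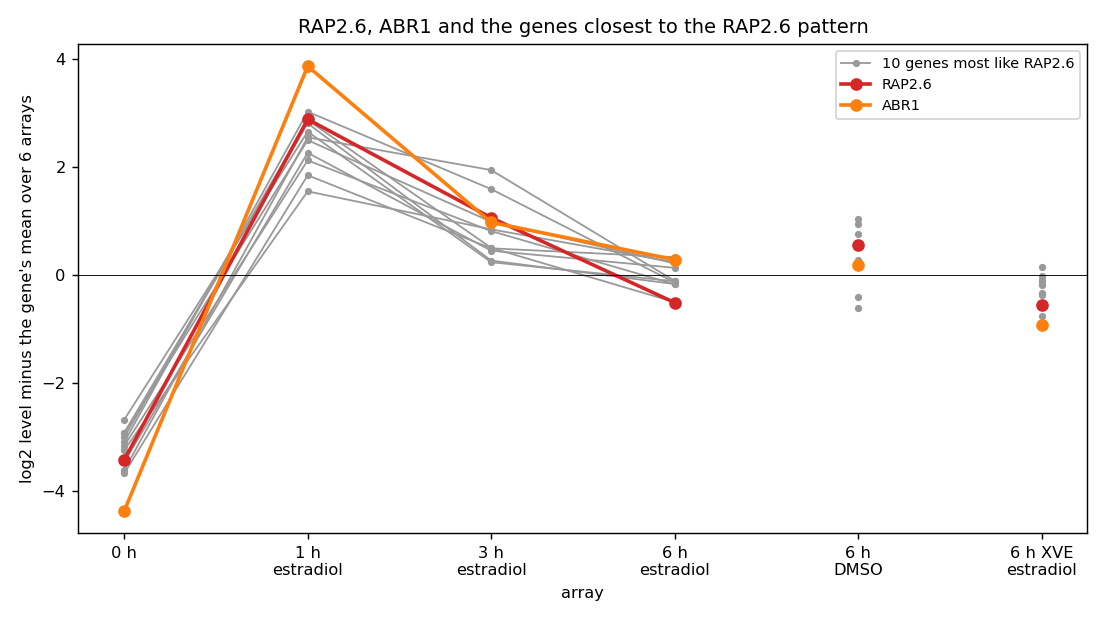
Log2 level minus the mean of each gene over the 6 arrays, for RAP2.6, ABR1 and the 10 genes most like RAP2.6, with lines joining the time course and separate points for the DMSO and XVE arrays. All lines are lowest at 0 h and highest at 1 h, which for the 10 genes was largely fixed by their choice by likeness to RAP2.6. Of the 10 genes 7, and also ABR1, were not well above background at 0 h, where their plotted value has no order.

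The other group X genes did not share these patterns. ERF109, a fast redox and wound factor, had 3.54, 2.85, 3.05 and 3.43 over the time course, 3.56 for DMSO and 3.28 for XVE, and its 1 h level was lower than that of 0 h by -0.68. ERF110 was well above background on 3 of 6 arrays, with levels of -4.10 at 0 h, -4.58 at 3 h and -4.42 at 6 h, and ERF112 on none.

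Of group IX, the activators that carry much of the ethylene and jasmonate defence response, 14 genes were measured. At 1 h 3 of 12 were at least 2-fold above 0 h (6.32% of all genes) and 2 lower (6.38%), with a median of -0.15 against -0.076 for all genes. The higher ones were ERF2, at -0.98 against -2.73, ERF107, a regulator of wax synthesis, at 3.49 against 2.21, and ERF106, at -0.07 against -1.32. ERF091 at -1.30 and ERF5 at -1.14 were lower, and ESE1, dim at 1 h, had a bound past 2-fold lower. At 3 h no group IX gene was 2-fold higher and 5 of 13 were lower (4.99% of all genes), with a median of -0.87 against -0.049 for all genes; the same counts were found with quantile, cyclic loess and normexp values. ERF5 was at -1.70, ERF6 at -1.50 and ESE1 at -3.37. At 6 h of estradiol 0 of 12 were higher (2.61% of all genes) and 3 lower (544 of 19172 genes), with 1 bound past 2-fold lower and a median of -0.40. With DMSO 0 of 13 were higher (4.62%) and 1 lower (763 of 18759 genes). On the XVE array 1 of 11 was higher (7.25%) and 1 lower (1325 of 18255 genes), with 1 bound past 2-fold lower and a median of 0.21. None of the 7 measured repressors of group VIIIa was 2-fold from 0 h at 1, 3 or 6 h of estradiol. Of all genes 12.7%, 7.37% and 5.45% were, so little can be read from this for 7 genes. Their medians were 0.19, 0.058 and -0.29, and 1 was 2-fold from 0 h with quantile or cyclic loess scaling at 1 h. ERF11 was 2-fold higher on the XVE array (1.03), 1 of 7 against 7.25% of all genes, though not under normexp.

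**Figure D4:**
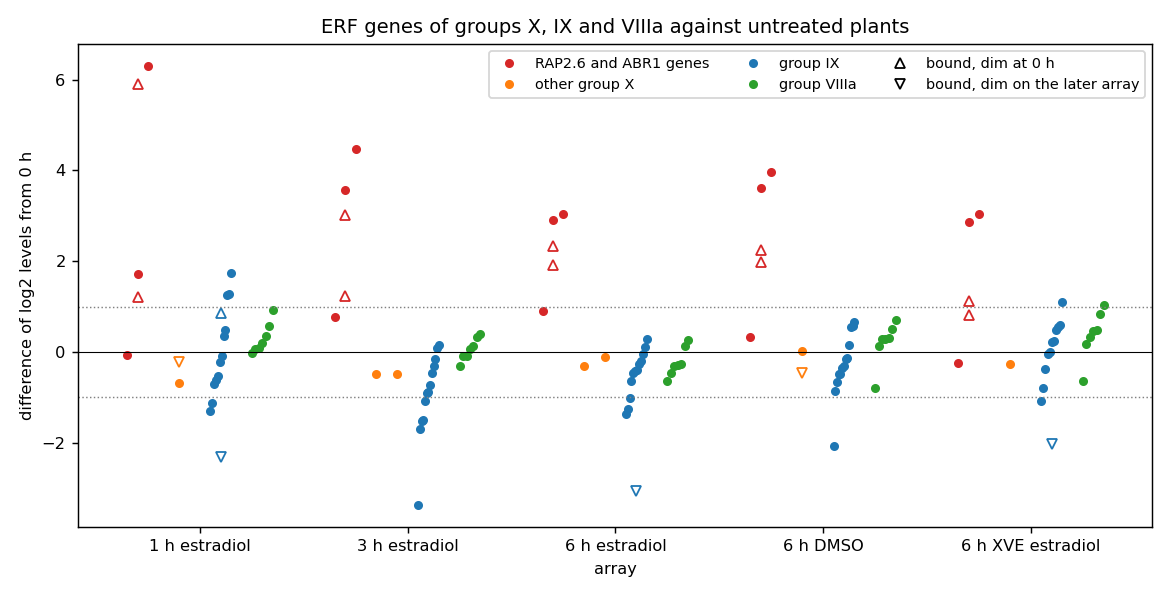
Differences of log2 levels from 0 h for ERF genes of group X, group IX and group VIIIa on 5 arrays, with open triangles for bounds where 1 array was dim and dotted lines at 2-fold. At 3 h RAP2.6 and ERF114 stood at 4.48 and 3.57. The plotted ERF114 mean includes a dim spot at 0 h, and its probe measured on both arrays gave 2.17. No gene of group IX or VIIIa was 2-fold higher at 3 h, where 2.38% of all genes were.

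Genes of the hormones that induce RAP2.6 and ABR1 were described from lists put together with earlier results of these data known. Of the jasmonate genes 16 of 21 were at least 2-fold above 0 h at 1 h (6.32% of all genes) and 11 at 3 h (2.38%). A further 7 calls were at 6 h of estradiol (2.61%), 10 with DMSO (4.62%) and 15 on the XVE array (7.25%). None was 2-fold lower. The median difference was 1.76 at 1 h, 0.66 at 6 h of estradiol, 0.99 with DMSO and 1.34 on the XVE array, so the XVE array stood second for this list, whereas for ABR1 it was the lowest of the 5 and for RAP2.6 it was level with 6 h of estradiol. At 1 h AOC2, a jasmonate synthesis gene, was 4.03 above 0 h on the log2 scale, AOC1 at 0.73 against -2.73, and CYP94C1, a jasmonate oxidase gene, at 2.26 and dim at 0 h. The late outputs VSP1 and VSP2 had a pattern of their own, at -0.49 and 0.89 at 1 h and 1.94 and 2.81 at 6 h, each highest with DMSO at 2.26 and 3.19.

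Abscisic acid genes were at least 2-fold above 0 h for 6 of 12 at 1 h, 5 at 3 h, 5 at 6 h of estradiol, 5 with DMSO and 3 on the XVE array, and none was lower. The shares of all genes that were higher are 6.32%, 2.38%, 2.61%, 4.62% and 7.25% in the same order, and they hold for the lists that follow. RD20, a caleosin gene, was higher by 3.95 at 1 h and 3.41 at 6 h, and by 1.67 on the XVE array. ABI1, a phosphatase that restrains the hormone's signal, had -1.04, 0.18, 0.30 and 0.92 over the time course. Of the ethylene genes 4 of 13 were at least 2-fold higher at 1 h, among them ACO4, an ethylene synthesis gene, at 0.99 against -0.77, and EBF2, an F-box gene of EIN3 turnover, at 1.05 against -0.80. At 3 h 1 of 13 was, and at 6 h of estradiol and with DMSO none, while 2 of 12 were on the XVE array. Under normexp 2 ethylene genes were at 1 h.

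Touch and early wound genes lay on both sides at 1 h, with 2 of 10 at least 2-fold higher (6.32% of all genes) and 2 lower (6.38%). WRKY53 was at -0.42 against -2.51 and WRKY33 at 2.05 against 1.00, while CBF3 was lower by -2.35 and CBF2 by -1.88. At 3 h 1 of 10 was higher, at 6 h of estradiol none was higher and 1 lower, with DMSO 2 were higher, and on the XVE array 3 were.

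Phytosulfokine genes encode the precursors and receptor of a growth peptide, and PSK5 is a target of ERF115 in roots. At 1 h 4 of 5 measured genes were at least 2-fold above 0 h (6.32% of all genes), 2 were at 3 h, at 6 h and with DMSO, and 1 was on the XVE array. Under normexp 2 phytosulfokine genes were at 1 h and none at 6 h of estradiol. PSK5 had -1.05, 1.24, 0.89 and 0.13 over the time course, 0.67 for DMSO and -0.13 for XVE, and was thus highest at 1 h. There the faint ERF115 probe was at its 0 h level within the scanner error, and a link between these genes was not tested. PSK4 was at -3.73 at 0 h and -1.66 at 1 h. Among the wound regeneration genes 1 of 9 was 2-fold higher at 1 h, near the 6.32% of all genes, the NAC factor gene ANAC096 at -2.55 against -4.20, and 1 of 9 at 3 h, WIND2, a dedifferentiation factor gene, at 2.12 against 1.08. The partner gene of ERF115, PAT1, ran from 0.81 on the XVE array to 1.23 at 3 h.

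**Figure D5:**
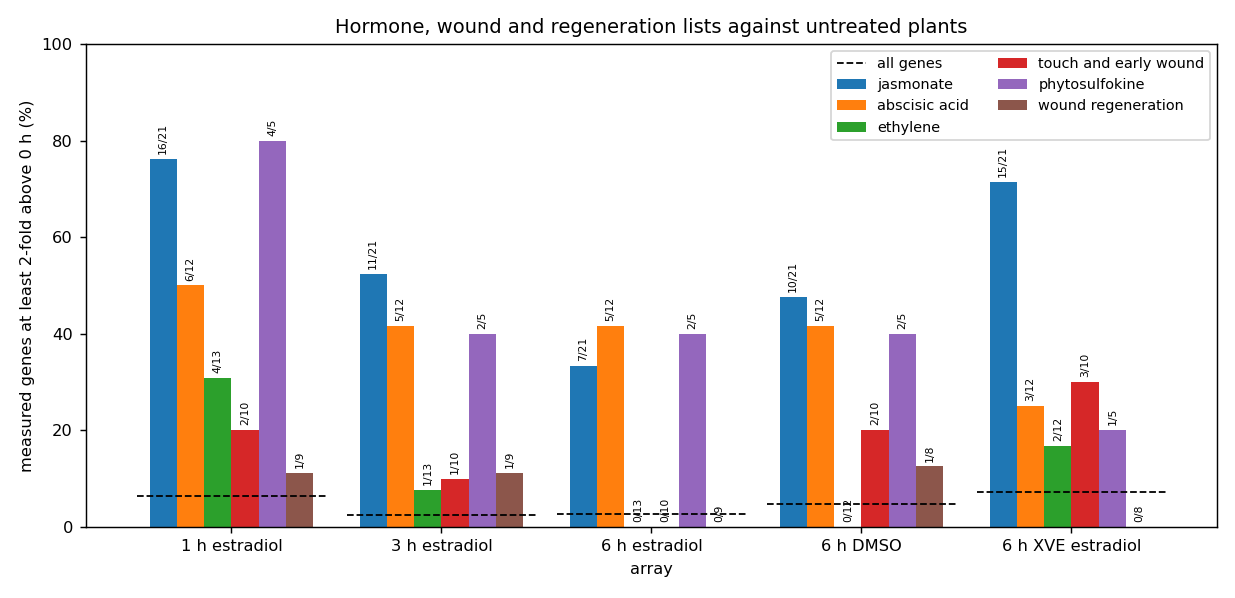
Share of measured genes of 6 lists that were at least 2-fold above 0 h on 5 arrays, in percent, with the counts above the bars and dashed lines for all genes. Jasmonate genes were at 16 of 21 at 1 h and 15 of 21 on the XVE array, and of the ethylene genes none was at 6 h of estradiol.

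Defence genes with GCC boxes in their promoters, the class of target that ERF activators are known for, were mostly dim, and of the 2 measured at 0 and 1 h neither was 2-fold higher. Levels at 0, 1 and 3 h were -2.98, -3.35 and -4.07 for PDF1.3 and 0.48, 0.23 and -0.040 for HEL. PDF1.3 was thus at least 2-fold lower at 3 h than at 0 h, 1 of 2 measured genes against 4.99% of all genes. PDF1.2A was not well above background on any array of the time course and was at -2.30 with DMSO and -2.67 on the XVE array, at least 4.12-fold and 3.20-fold above 0 h, which is also a difference of slides.

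The measured genes beside the 5 on their chromosomes were within 2-fold of 0 h in the time course. Of all genes 12.7%, 7.37% and 5.45% were at least 2-fold apart at 1, 3 and 6 h, so with 16 genes measured little can be read from this. Of the 20 protein-coding genes next to the set, 2 on each side, 16 were measured at 0 and 1 h, and their differences ran from -0.94 to 0.35. At 3 h they ran from -0.71 to 0.48 and at 6 h of estradiol from -0.40 to 0.44. Across slides, PBS3, a salicylate synthesis gene beside RAP2.6L, was higher by 1.24 and AT1G43140, near RAP2.6, lower by -1.14 with DMSO, while RGF9, near ABR1, was higher by 1.79 and AT5G13340, beside RAP2.6L, lower by -1.28 on the XVE array.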

How the data were processed

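Each of the 6 single-colour arrays was 1 sample. Intensity values came from scanner files deposited by the authors, made with Agilent Feature Extraction (version 10.5.1.1 in the submitters' processing notes); per the file headers the processed intensity is background-subtracted and detrended within the array. The deposited files also give flags of each spot and its median and background intensity. The authors' deposited log2 table matched the log2 processed intensity with each array's 75th percentile subtracted, within 0.01 of a constant offset for 100% of 43464 probes, so scale, centring and direction are known; the medians of its columns were -2.085, -2.122, -2.146 and -2.114 for the time course, -2.145 for DMSO and -2.087 for XVE.

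Of 43603 probes, 139 without an unflagged spot on every array were left out, and 34267 matched 1 locus through unversioned RefSeq accessions in a TAIR10.1 gene table, used for names and gene order only. A gene's level averages those probes that passed the background flag somewhere; 17986 genes passed it on all 6 arrays. No spot was saturated. A bound sets the bright level against the higher of the dim level and the lowest signal well above background. The median SD of log2 values of probes spotted repeatedly on an array was 0.172 to 0.225. The 10 comparisons, the lists and the rule for named genes were chosen with earlier results of these data known: all group X genes, up to 4 genes per list and comparison, neighbours, and the 10 genes (5 for other members) most like each gene. Named neighbours were chosen after their values were seen. Computation used R 4.3.3 with limma 3.58.1 and Python 3.11.15 and was checked on simulated data. Alternatives were quantile and cyclic loess scaling, normexp with an offset of 50, the log2 table as deposited, dim probes kept, genes passing the flag on all 6 arrays, and the brightest probe. Normexp was planned on mean signals and used median signals, the ones in these files.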

Additional observations from a re-analysis of the deposited data

How the results depend on the processing

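With 7 alternatives, 258 of 270 differences of the 5 genes kept their side of 2-fold, 10 no longer reached it and 2 that were past 2-fold reversed. Of 50 bounds 45 kept their side. These totals include settings that hardly could change the differences. The deposited table, dim probes kept and genes passing the flag on all 6 arrays use the same levels, with 40, 40 and 30 differences. The brightest probe could change ERF114 alone. Under normexp 32 differences kept their side, 6 fell short and 2 reversed. Of the normexp bounds 6 kept their side and 4 fell short. RAP2.6 stayed at 5.22 to 6.56 above 0 h at 1 h and 2.13 to 2.99 at 6 h. The reversed ones were RAP2.6L (-0.069) and ERF115 (-0.026) at 6 h of estradiol against the XVE array, under normexp. Differences under 2-fold also changed sign under normexp, among them ERF115 at 3 h against 0 h (-0.094) and 1 h (-0.11) and for XVE against DMSO (0.42). ERF114 at 1 h was at 0.50 with the brightest probe and 0.41 under normexp, and at 6 h at 0.79 and from 1 to 3 h at 0.66 under normexp, less than 2-fold. The number of the 5 genes at least 2-fold apart was 1 at 1 h under normexp and with the brightest probe, and 1 at 6 h against 0 h under normexp, in place of 2. Without the filter on dim probes it was 4 against 0 h on each of the 5 later arrays, since ABR1 and RAP2.6L then count. Estradiol against DMSO had 0 with quantile scaling in place of 1. Against the XVE array 1 remained with cyclic loess, 0 under normexp and 1 among genes well above background on all 6 arrays, in place of 3; XVE against DMSO had 1 under normexp and 1 among those genes, in place of 3. Normexp adds an offset of 50, which narrows differences of faint spots, and moved the median of all genes at 3 h against 0 h to -0.19, from -0.05. The share of all genes' calls that were higher also moved by over 10 points for 3 h against 1 h (31.4%, 13.5% under normexp), 6 h against 3 h (63.4%, 77.2%), 6 h against XVE (41.5%, 29.4%) and DMSO against 0 h (53.2%, 63.4% with cyclic loess), and for estradiol against DMSO with dim probes kept (38.4%, 50.4%). No paired analysis was possible because each group has 1 array. Faint signal limits RAP2.6L and ERF115 in particular, and ABR1 and RAP2.6L have no level at 0 h, only a bound.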
